A study of Mus musculus with 9 samples.

Results

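Gene expression in the injured renal cortex was compared between mice treated with TJ0113 and mice treated with vehicle, in 3 libraries of each group, over every gene with a mean of at least 0.5 FPKM in the 9 libraries of the study. FPKM is the number of sequenced fragments of a gene relative to the length of its exons and to the depth of the library. Of 34669 genes in the table, 15453 met this minimum (44.6%). All mice were wild-type C57BL/6 males, 10 weeks old. In both injured groups the pedicles of both kidneys were clamped for 30 min and then released, a model called bilateral ischemia-reperfusion injury (bIRI). TJ0113, which the treatment labels spell TJ013, or vehicle was given by gavage once a day from 3 days before the operation through day 14 after it, when the mice were killed. The 3 sham libraries came from mice that were operated on without clamping, and they serve here as a level to read the injured groups against. The sources used here do not give the dose, the vehicle or whether sham mice were gavaged. The labels do not say whether each library is 1 mouse, so p-values measure the spread between these libraries.

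Clamping the renal pedicle starves the tubules of oxygen, and the proximal tubule, which lives almost entirely on mitochondrial respiration, is the segment hurt most. Cells that survive switch on heat shock chaperones, immediate early transcription factors and growth factors of the epidermal growth factor family, lose their transport genes, and then either regain them or stay in an unrepaired state with inflammation and matrix deposition. Mitophagy is the removal of damaged mitochondria through autophagy, and the kinase encoded by Pink1 is one of its sensors.

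The libraries held 62300000 to 85200000 reads, as recovered from the step size of their lowest values. Proximal tubule markers were abundant, with Slc34a1, the main phosphate transporter, at 569 to 1250 FPKM over the 6 injured libraries. Of the muscle and adrenal markers, Ckm, Cyp11b1 and Cyp11a1 were at or below 0.0869 FPKM. The muscle marker Acta1 was at 0.0187 to 0.0567 FPKM in sham, 0.095 to 0.546 FPKM in vehicle and 0.131 to 0.396 FPKM with TJ0113. Markers of tissue next to the cortex varied between libraries, and Upk3a of the urothelium ran from 0.0267 to 19.4 FPKM in vehicle and from 0 to 1.64 FPKM with TJ0113. On the first principal component, which held 75.5% of the variance, sham lay between -61.7 and -52.5. Vehicle libraries 1, 2 and 3 lay at 30.8, -8 and 70.6, and the TJ0113 libraries at 25.4, 4.5 and 51.1. The vehicle libraries were thus spread widely around library 1, with library 2 nearest to sham and library 3 farthest from it, and results that rest on either are given without it as well. Between replicates, the SD of log2 values had a median over genes of 0.269 in vehicle, 0.187 with TJ0113 and 0.09 in sham.

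No gene passed the test. With limma on log2(FPKM + 1) and Benjamini-Hochberg adjustment over 15453 genes, 0 genes had an adjusted p below 0.05 (0.0%), and the smallest adjusted p was 0.796. At an unadjusted p below 0.05, 357 genes were higher with TJ0113 (2.31%) and 570 lower (3.69%). The fit pools the spread of all 3 groups, of which sham had the smallest. With the 6 injured libraries alone, 171 genes were higher and 211 lower at that threshold. The 3 TJ0113 values did not overlap the 3 vehicle values in 458 genes that were higher (2.96%) and 678 that were lower (4.39%). If the libraries were exchangeable, 3 against 3 would separate, in either direction, with a probability of 0.1. Both shares together were below that, so a lack of overlap in a single gene is by itself no evidence of a difference. The shares of 2.96% and 4.39% are the background for the gene groups that follow. Of all genes, 6763 were higher and 8690 lower, and with each library scaled to the same sum of FPKM, 4240 and 11213, so gene groups with small medians could change direction with the scaling. Most differences were small. The middle 90% of genes lay between -0.38 and 0.35 on the log2 scale, the median gene was at -0.03, and the median 95% confidence interval reached 0.387 to either side of its estimate. Only 23 genes were at 1 or more and 39 at -1 or less. A weight for each library, estimated from the data, was the one setting among those tried that gave calls, with 189 genes higher and 279 lower at an adjusted p below 0.05 by limma and Benjamini-Hochberg. That fit weighted vehicle library 1 at 2.14 and TJ0113 library 1 at 2.35, and the other injured libraries at 0.184 to 0.583. Of its 468 genes, 219 did not overlap between the groups.

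**Figure D1:**
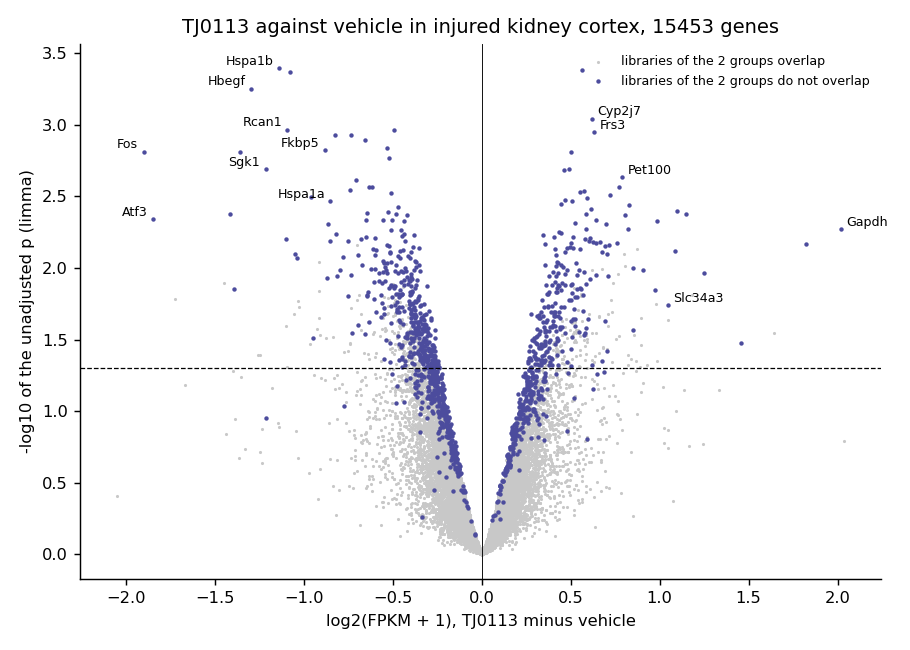
Each of the 15453 genes is a point, with the log2 difference between TJ0113 and vehicle on the x axis and the unadjusted limma p, as -log10, on the y axis, where the dashed line stands at 0.05. Blue points are the 458 higher and 678 lower genes whose groups did not overlap, and Hspa1b had the smallest p (0.000403).

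The heat shock chaperones held the lowest p of the comparison. Hspa1b, an inducible form of the Hsp70 chaperone that refolds damaged proteins, stood at 23.5, 24.4 and 34.4 FPKM in the vehicle libraries and at 9.63, 14 and 11.9 FPKM with TJ0113, against 5.31 to 8.44 FPKM in sham. Every TJ0113 library lay below every vehicle library and above every sham library. The log2 difference was -1.14 ± 0.21 (SE), with a 95% interval of -1.62 to -0.66. Its neighbour and near copy Hspa1a had 5.05, 6.91 and 7.99 FPKM in vehicle and 2.08, 3.9 and 3.87 FPKM with TJ0113, a log2 difference of -0.85 ± 0.22, again without overlap. Reads of these near-identical genes can be assigned to either of them, so their separate levels are uncertain. Dnajb1, the co-chaperone that hands clients to Hsp70, was at 19.1, 19.1 and 21.9 FPKM in vehicle and 12.5, 15.5 and 13.1 FPKM with TJ0113 (log2 difference -0.52 ± 0.12). Bag3, which ties Hsp70 to autophagy, was at 22.4, 17.9 and 23.8 FPKM in vehicle and 15.5, 15.6 and 14.5 FPKM with TJ0113 (-0.46 ± 0.13). In both, the TJ0113 libraries lay between the sham and the vehicle libraries. Of the 19 heat shock proteins and co-chaperones tested, 15 were lower and 4 higher. The groups did not overlap in 8 of the lower genes, against the background of 4.39%, and 7 had an unadjusted p below 0.05. The median log2 difference was -0.26, and it ranged from -0.34 to -0.2 over the fits that each left out 1 injured library. With the trend of the differences over gene length removed, 5 of the 19 genes did not overlap on the lower side and 1 on the higher side.

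The heat shock factor binds inverted repeats of the letters GAA, so the 250 bases before the start of each gene were searched for GAANNTTC and TTCNNGAA, which read alike on both strands. At least one of them was present in 12.9% of 27025 mouse genes in the RefSeq promoter table (build GRCm38.p6), and in 6 of the 14 heat shock list members that the table holds. The windows of Hspa1b (chr17:34959239-34959488, minus strand) and Hspa1a (chr17:34972157-34972406, minus strand) are shown because these genes differed most within the list, and that of Rcan1 (chr16:92466170-92466419, minus strand) because it holds the same kind of repeat outside the list. Capitals mark the repeat and, in Rcan1, also an E-box, CACGTG, which 6.05% of genes had. The windows of Hspa1b and Hspa1a differ at 3 of 250 bases and share a repeat that begins 104 bases before the start. In Rcan1 the repeat begins 107 bases before the start.
Hspa1b: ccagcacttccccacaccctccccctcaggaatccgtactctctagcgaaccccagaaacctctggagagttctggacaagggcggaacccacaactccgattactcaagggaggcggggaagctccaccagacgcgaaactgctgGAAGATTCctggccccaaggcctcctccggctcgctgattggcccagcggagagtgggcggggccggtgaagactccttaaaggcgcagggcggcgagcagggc
Hspa1a: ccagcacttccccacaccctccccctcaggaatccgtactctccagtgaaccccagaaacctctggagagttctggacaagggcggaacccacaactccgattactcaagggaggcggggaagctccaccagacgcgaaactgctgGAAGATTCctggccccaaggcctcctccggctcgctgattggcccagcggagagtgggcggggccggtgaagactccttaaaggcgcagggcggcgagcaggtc
Rcan1: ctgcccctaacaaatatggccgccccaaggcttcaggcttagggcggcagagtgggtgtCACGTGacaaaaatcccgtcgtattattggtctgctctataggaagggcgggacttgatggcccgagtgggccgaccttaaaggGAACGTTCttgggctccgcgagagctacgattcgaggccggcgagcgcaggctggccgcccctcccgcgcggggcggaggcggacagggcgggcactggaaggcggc
A match is a run of letters and no measured binding, and Dnajb1 and Bag3 had lower values with no such repeat in their windows. Hspe1, which is among the 6 members with a repeat, was the list member furthest to the higher side (log2 difference 0.29).

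Among single genes in none of the lists, Hbegf, Rcan1 and Wee1 were lower without overlap. Hbegf, a membrane-bound ligand of the epidermal growth factor receptor, was at 14.2, 9.33 and 18.8 FPKM in vehicle and at 4.6, 3.77 and 6.84 FPKM with TJ0113, where sham had 3.37 to 4.36 FPKM. Its log2 difference was -1.30 ± 0.25, and the highest TJ0113 library lay below the lowest vehicle library. Rcan1, an inhibitor of the phosphatase calcineurin, was at 56.1, 37.8 and 75.1 FPKM in vehicle and at 26.9, 22.8 and 25.2 FPKM with TJ0113 (-1.09 ± 0.23). The TJ0113 values of Rcan1 were tight and stood near the sham range of 17.2 to 24.9 FPKM. Wee1, the kinase that holds the cell cycle before mitosis, was at 12.1, 7.4 and 9.32 FPKM in vehicle and 5.37, 5.07 and 5.36 FPKM with TJ0113 (-0.73 ± 0.16). Leaving out vehicle library 2 moved these differences to -1.55, -1.35 and -0.89, and leaving out vehicle library 3 to -1.08, -0.86 and -0.74.

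Immediate early genes are switched on within minutes of a stimulus, and all 21 that were tested were lower with TJ0113. In 5 of them the groups did not overlap and 9 had an unadjusted p below 0.05. The median was -0.76, against -0.03 over all genes. Fos, a subunit of the AP-1 transcription factor, was at 13.1, 17.2 and 41.1 FPKM in vehicle and 4.23, 3.02 and 8.91 FPKM with TJ0113 (-1.90 ± 0.43). Atf3, a stress-induced repressor, was at 21.3, 11.2 and 57.5 FPKM in vehicle and 6.37, 3.53 and 9.23 FPKM with TJ0113 (-1.85 ± 0.50), while sham did not exceed 0.667 FPKM. Btg2, a brake on proliferation, was at 48.7, 21.6 and 69.1 FPKM in vehicle and 15, 10.7 and 21.3 FPKM with TJ0113 (-1.42 ± 0.38). Vehicle library 3 was the highest library for each of these 3 genes and vehicle library 2 the lowest vehicle library for Atf3 and Btg2. Averaged over the list, the vehicle libraries lay 2.11, 1.6 and 2.97 above sham on the log2 scale and the TJ0113 libraries 1.34, 0.86 and 1.77. Tubular injury genes averaged 2.67, 1.69 and 3.21 above sham in vehicle and 2.38, 1.63 and 2.68 with TJ0113, so within each group the library order was the same for both lists; the part of injury in the difference of the immediate early genes was not tested. Without vehicle library 3, 17 of the 21 genes were lower and the median was -0.46. Without vehicle library 2, the groups did not overlap in 13 of the 21, where the background for lower genes was 26.8%.

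Feedback inhibitors of the mitogen-activated protein kinases went with them in direction. Of 14 dual-specificity phosphatases and Sprouty family members tested, 12 were lower, 5 of them at an unadjusted p below 0.05 and 3 without overlap, with a median of -0.38. The separated members were Dusp4, Dusp6 and Spry4. Dusp4, a phosphatase of the nucleus, was at 4.19, 3.78 and 4.25 FPKM in vehicle and 3.45, 2.94 and 2.26 FPKM with TJ0113 (-0.40 ± 0.14). Dusp6, which inactivates ERK, was at 22.2, 21.3 and 25.6 FPKM in vehicle and 17.3, 12.4 and 19.6 FPKM with TJ0113 (-0.49 ± 0.17). Without vehicle library 1, 2 of the 14 had an unadjusted p below 0.05, and 9 were lower when vehicle library 3 was omitted. Dusp1, which inactivates p38 and JNK kinases, belongs to the immediate early and glucocorticoid lists and is not one of these 14. It was at 39.1, 37.6 and 58.8 FPKM in vehicle and 18, 14.1 and 36.3 FPKM with TJ0113 (-1.04 ± 0.31). Dusp1 and Dusp6 were both separated, and the TJ0113 range of each reached into the sham range. The sham values were 16.3 to 20.8 FPKM for Dusp1 and 11.5 to 13.8 FPKM for Dusp6. Among the 16 immediate early genes in the promoter table, Btg2 (chr1:134079156-134079405, minus strand) and Dusp1 (chr17:26508473-26508722, minus strand) carried the whole cyclic AMP response element TGACGTCA, which 1.62% of all genes had. Their windows are shown because both genes also separated between the groups. Capitals mark that element, which begins 166 bases before the start of Btg2 and 143 before that of Dusp1, and in Dusp1 also an E-box.
Btg2: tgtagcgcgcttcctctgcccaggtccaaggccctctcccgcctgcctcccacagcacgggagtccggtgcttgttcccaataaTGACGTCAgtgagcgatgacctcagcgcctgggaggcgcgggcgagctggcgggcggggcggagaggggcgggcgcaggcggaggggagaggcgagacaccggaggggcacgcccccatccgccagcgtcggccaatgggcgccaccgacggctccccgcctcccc
Dusp1: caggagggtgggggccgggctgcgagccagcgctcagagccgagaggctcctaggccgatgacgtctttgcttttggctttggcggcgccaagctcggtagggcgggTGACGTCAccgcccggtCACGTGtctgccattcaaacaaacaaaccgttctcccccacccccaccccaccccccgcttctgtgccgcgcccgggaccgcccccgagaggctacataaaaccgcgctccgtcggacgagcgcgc

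**Figure D2:**
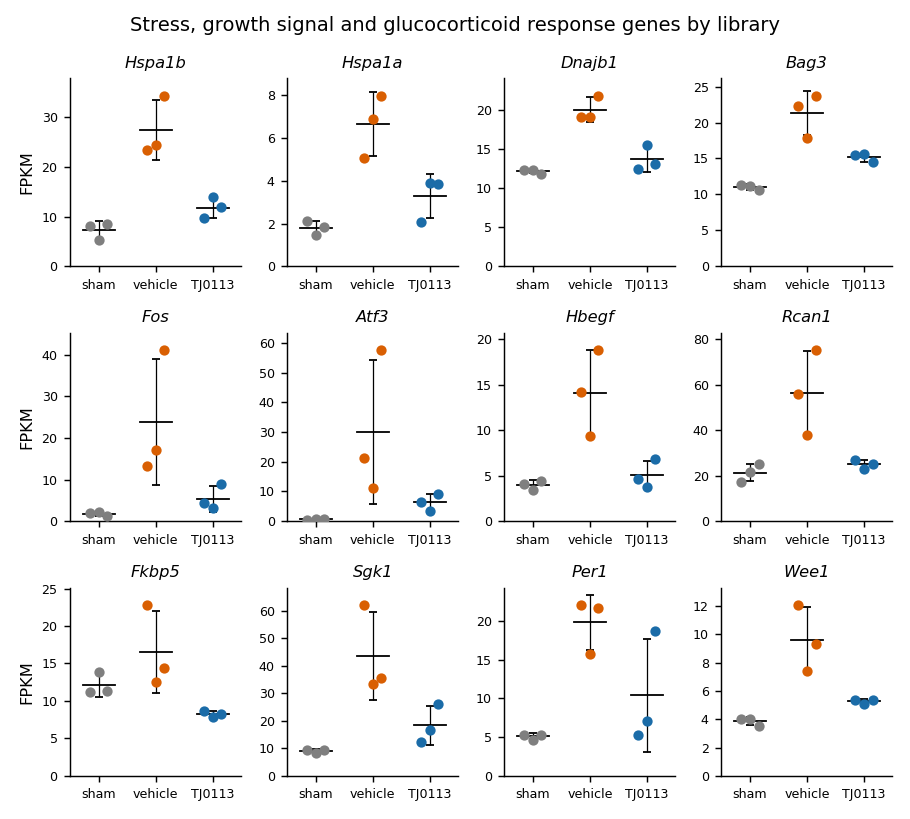
FPKM of 12 genes in each of the 9 libraries (points, library 1 to 3 from left to right in each group), with the group mean and SD as black lines and the y axis starting at 0. In 11 of the panels the 3 TJ0113 libraries lie below the 3 vehicle libraries, and in Per1 TJ0113 library 3 reaches 18.8 FPKM, within the vehicle range of 15.7 to 22.

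Glucocorticoid response genes are targets of the receptor for cortisol and corticosterone. With TJ0113 all 14 tested were lower, and their median was -0.71. In 3 of them the groups did not overlap, and 8 had an unadjusted p below 0.05. Fkbp5, a co-chaperone that dampens the receptor, was at 22.8, 12.5 and 14.4 FPKM in vehicle and 8.65, 7.9 and 8.23 FPKM with TJ0113, a log2 difference of -0.88 ± 0.20. All 3 TJ0113 values of Fkbp5 lay below the sham range of 11.1 to 13.8 FPKM as well. Sgk1, the kinase that raises sodium transport, was at 62, 33.2 and 35.6 FPKM in vehicle and 12.2, 16.5 and 26.1 FPKM with TJ0113, and at most 9.5 FPKM in sham (-1.22 ± 0.29). Errfi1, an inhibitor of the epidermal growth factor receptor, was at 167, 185 and 131 FPKM in vehicle and at 81.6, 79 and 143 FPKM with TJ0113, where library 3 lay inside the vehicle range (-0.70 ± 0.24). Per1, which is both a glucocorticoid target and a clock gene, was at 22, 15.7 and 21.7 FPKM in vehicle and 5.33, 7.12 and 18.8 FPKM with TJ0113 (-1.03 ± 0.36). The list median ran from -0.96 to -0.5 over the fits that each left out 1 injured library, and omitting vehicle libraries 1, 2 and 3 in turn gave -0.62, -0.96 and -0.79. Without vehicle library 1, 4 of the 14 had an unadjusted p below 0.05 in place of 8.

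Of 18 clock genes tested, 8 were higher and 10 lower, 4 of the latter at an unadjusted p below 0.05, and the median was -0.04. The 2 that separated were Bhlhe40, a repressor of clock targets, at 43.5, 44 and 56.3 FPKM in vehicle and 42.5, 26.5 and 34.9 FPKM with TJ0113, and Clock itself, at 4.46, 2.85 and 3.82 FPKM in vehicle and 2.83, 2.54 and 2.64 FPKM with TJ0113. The gap was narrow in both, 42.5 against 43.5 FPKM for Bhlhe40 and 2.83 against 2.85 FPKM for Clock. Nfil3, a repressor of the same network, overlapped between the groups (-0.91 ± 0.30).

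Among other stress programmes, 20 of 22 endoplasmic reticulum stress genes were lower, with a median of -0.26. Of these, 3 did not overlap and 3 had an unadjusted p below 0.05. With the 6 injured libraries alone, 0 of the 22 had an unadjusted p below 0.05. Without vehicle library 1 that count was also 0, and the median was -0.14. Herpud1, which helps clear misfolded proteins from the reticulum, was at 147, 146 and 121 FPKM in vehicle and 97.6, 120 and 99.8 FPKM with TJ0113 (-0.38 ± 0.16), against 110 to 135 FPKM in sham. Dnajc3 (-0.49 ± 0.18) and Atf6 (-0.38 ± 0.15), a chaperone and a sensor of the same response, overlapped between the groups. Targets of p53 had 16 of 20 members lower, with a median of -0.33. At an unadjusted p below 0.05, 6 were lower and 1 higher, and 3 lower and 1 higher did not overlap. With the 6 injured libraries alone, 2 were lower and 0 higher at that threshold. Of the members named here, Btg2, given above, and Aen were lower and Sesn2 higher. Aen, a nuclease active in apoptosis, was at 8.1, 6.66 and 6.37 FPKM in vehicle and 4.76, 4.84 and 5.11 FPKM with TJ0113 (-0.44 ± 0.12). Sesn2, a sensor of leucine that restrains growth, was at 10.7, 13.7 and 12.1 FPKM in vehicle and 14.5, 15.7 and 15.7 FPKM with TJ0113 (0.31 ± 0.12).

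Of 19 hypoxia targets, 13 were lower and 6 higher, with a median of -0.13. Pfkfb3, which drives glycolysis, was at 8.35, 3.87 and 6.49 FPKM in vehicle and 2.64, 3.85 and 3.18 FPKM with TJ0113, so that vehicle library 2 and TJ0113 library 2 nearly met (-0.74 ± 0.23). Hif1a, the oxygen-regulated transcription factor, was at 16.2, 10.6 and 15.4 FPKM in vehicle and 9.37, 10.7 and 8.52 FPKM with TJ0113 (-0.50 ± 0.16). Vegfa, the endothelial growth factor, was the one member higher at an unadjusted p below 0.05, at 46.5, 70 and 47.6 FPKM in vehicle and 64.3, 79.4 and 74.1 FPKM with TJ0113 (0.42 ± 0.17). Of 24 targets of NRF2, the regulator of antioxidant genes, 10 were higher and 14 lower, with a median of -0.08. Srxn1, which repairs oxidised peroxiredoxins, was at 43.7, 36 and 35.4 FPKM in vehicle and 32.7, 28 and 26.2 FPKM with TJ0113 (-0.39 ± 0.13). Nfe2l2, which encodes NRF2, differed by -0.41 ± 0.18.

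Of 22 cholesterol synthesis genes tested, 6 were higher and 16 lower, and the list median of -0.05 was near that of all genes. Idi1, which makes the building block of isoprenoids, was at 5.74, 6.49 and 2.62 FPKM in vehicle and 2.99, 4.03 and 1.11 FPKM with TJ0113, while sham was at 12.8 to 15.8 FPKM. Both injured groups were below sham, and they overlapped with each other (-0.70 ± 0.35). Hsd17b7, a later enzyme, also overlapped (-0.40 ± 0.15).

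Genes of the mitochondrial respiratory chain were mostly higher with TJ0113. Of 36 nuclear subunits of complex I, which takes electrons from NADH, 33 were higher and 3 lower, with a median of 0.31. The groups did not overlap in 4, against a background of 2.96%, and 5 had an unadjusted p below 0.05. Ndufa5 was at 55.7, 77.1 and 55 FPKM in vehicle and 83.1, 101 and 101 FPKM with TJ0113 (0.61 ± 0.17), where sham had 51.5 to 64.6 FPKM. Ndufa3 was at 47.6, 81 and 59.5 FPKM in vehicle and 93.8, 113 and 90 FPKM with TJ0113 (0.67 ± 0.20), where sham had 45.9 to 56.8 FPKM. All 3 TJ0113 libraries of both genes were above every sham library, not only above vehicle. Pet100, an assembly factor of cytochrome c oxidase, had the same order with 3.99, 7.05 and 7.16 FPKM in vehicle, 9.68, 11.5 and 11.6 FPKM with TJ0113 and 3.64 to 4.1 FPKM in sham (0.79 ± 0.19). Vehicle library 2 was the highest vehicle library for Ndufa5 and Ndufa3. Without it, all 36 complex I genes were higher and 25 did not overlap, where the background was 7.55%, and the median was 0.46. Without vehicle library 3 the median was 0.19, with 27 higher and 9 lower. With equal FPKM sums it was 0.19, with 29 higher and 7 lower. Medians were 0.15 for subunits of complexes II and III, 0.27 for complex IV and 0.16 for ATP synthase, with 0 genes without overlap. With equal FPKM sums they were 0.03, 0.15 and 0.04. Genes of the tricarboxylic acid cycle (14 of 22) and of fatty acid oxidation (21 of 30) were mostly lower, but without vehicle library 2 only 8 and 9 were.

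Smaller differences were found in the machinery that makes and imports mitochondrial proteins. Mitochondrial ribosomal proteins had 28 of 33 members higher, with a median of 0.14 that stayed between 0.09 and 0.16 when any 1 injured library was left out. With equal FPKM sums 18 were higher and 15 lower, and the median was 0.03. In the fit without that scaling, 4 did not overlap and 3 had an unadjusted p below 0.05. With the length trend removed, 0 were without overlap and 1 had an unadjusted p below 0.05, while the median was again 0.14. Mrpl14, of the large subunit, was at 21, 30.9 and 24.5 FPKM in vehicle and 34.7, 34.3 and 34.9 FPKM with TJ0113 (0.45 ± 0.15). Mrps36 was at 19.4, 30.5 and 18.9 FPKM in vehicle and 32.4, 33.8 and 28.7 FPKM with TJ0113, with overlap (0.48 ± 0.19). Of 21 import genes, 14 were higher (9 with equal FPKM sums), and the separated members went both ways, 2 higher and 2 lower. With the length trend removed, 0 of the import genes were without overlap. Tomm7, a small subunit of the outer membrane pore that stabilises PINK1, was at 40.4, 40.5 and 30.9 FPKM in vehicle and 43.3, 53.5 and 51.2 FPKM with TJ0113 (0.40 ± 0.15). Tomm20, a receptor of the same pore, was at 34.4, 34 and 34.1 FPKM in vehicle and 32.1, 28.2 and 24.1 FPKM with TJ0113 (-0.28 ± 0.13).

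The 19 genes of the mitochondrial chromosome in the table, ribosomal and transfer RNA genes included, made up 18.6%, 23.31% and 12.12% of all FPKM in the vehicle libraries and 19.25%, 24.26% and 25.52% with TJ0113, against 25.51% to 27.71% in sham. The group means were 18.01% ± 5.62 and 23.01% ± 3.31 (SD, n = 3). Vehicle library 3 was lowest and the groups overlapped. An exact two-sided permutation test gave p = 0.2, where 0.1 is the smallest p that 3 against 3 allows. Single messages spread more widely, with mt-Co2, a subunit of cytochrome c oxidase, at 322, 1780 and 262 FPKM in vehicle and 873, 1460 and 1880 FPKM with TJ0113 (1.33 ± 0.65). The one that separated was mt-Nd6, the one protein gene on the strand opposite to all others, at 810, 1520 and 836 FPKM in vehicle and 1650, 2330 and 2020 FPKM with TJ0113 (0.97 ± 0.32). For mt-Nd3 the values were 74.9, 179 and 27.2 FPKM in vehicle and 118, 376 and 261 FPKM with TJ0113 (1.64 ± 0.64), a difference that rested on wide spread in both groups.

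Direction followed gene length across the whole comparison. In the shortest quintile of genes by summed exon length (12 to 1668 bases), 62.4% were higher with TJ0113 and the median log2 difference was 0.08. The share was 54.8%, 43.2% and 35.8% in the next quintiles and 22.4% in the longest (6871 to 41324 bases), where the median was -0.12. At an unadjusted p below 0.05 the shortest quintile had 201 genes higher and 75 lower, and the longest 9 higher and 175 lower. By library, the shortest quintile minus the longest was at -0.18, 0.04 and -0.15 in vehicle and 0.06, 0.12 and 0.12 with TJ0113. Vehicle library 2 lay nearer the TJ0113 libraries in this measure than the other vehicle libraries did. Subunits of respiration and ribosomes are mostly short genes. With the length trend removed, the complex I median was 0.25 with 33 of 36 genes still higher, and 0 of them were without overlap, while the median of the immediate early genes was -0.74. The part of gene length in these results was not tested beyond that. The share of low values (under 20 reads) that fell on an odd number of reads also differed by group. It was 35.42%, 33.93% and 33.5% in vehicle, 30.6%, 31.61% and 30.95% with TJ0113, and 34.58% to 35.57% in sham. The cause of that difference and its part in these results were not tested.

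**Figure D3:**
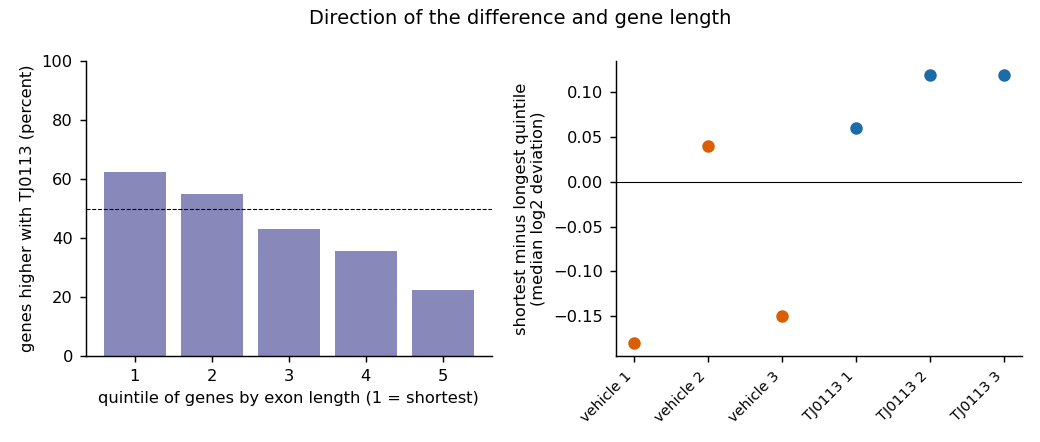
Left, percentage of genes that were higher with TJ0113 in each quintile of genes ordered by exon length, with the dashed line at 50%. Right, for each injured library, the median log2 deviation of the shortest quintile minus that of the longest, which was 0.06 to 0.12 in the TJ0113 libraries and -0.18 to 0.04 in the vehicle libraries.

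Of 32 mitophagy genes tested, 12 were higher with TJ0113 and 20 lower, and their median of -0.05 was near the -0.03 of all genes. The groups did not overlap in 5 of the lower genes, against the background of 4.39%, and 3 had an unadjusted p below 0.05, while on the higher side each of these counts was 1. With the 6 injured libraries alone, 0 genes of the list had an unadjusted p below 0.05. The median lay between -0.07 and -0.04 over the fits leaving out 1 injured library. With equal FPKM sums 3 were higher and 29 lower (median -0.17), and with the length trend removed 17 were higher and 15 lower, with 0 without overlap and 0 at an unadjusted p below 0.05. Pink1 was at 73.4, 99.1 and 67.8 FPKM in vehicle and 80.9, 103 and 59.9 FPKM with TJ0113. These ranges overlapped almost fully, and the log2 difference of 0.01 ± 0.21 had a 95% interval of -0.48 to 0.49. The lower members that separated included Bcl2l13, a mitophagy receptor, at 4.48, 4.45 and 4.32 FPKM in vehicle and 3.82, 3.41 and 2.97 FPKM with TJ0113 (-0.30 ± 0.12). Atg5, needed to extend the autophagosome membrane, was at 14.9, 12.6 and 11.9 FPKM in vehicle and 10.9, 10.9 and 9.08 FPKM with TJ0113 (-0.32 ± 0.14). Rhot1, which anchors mitochondria to motor proteins, differed by -0.25 ± 0.11, and the member furthest the other way was Tomm7. Of 26 genes of mitochondrial dynamics and biogenesis, 18 were lower and 0 had an unadjusted p below 0.05. Ppargc1a, the coactivator that drives mitochondrial biogenesis, was at 7.95, 6.84 and 6.07 FPKM in vehicle and 5.53, 7.39 and 5.82 FPKM with TJ0113 (-0.14, 95% interval -0.45 to 0.17).

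Proximal tubule genes leaned higher with TJ0113. Of 34 markers tested, 30 were higher, with a median of 0.35. The groups did not overlap in 2, against the background of 2.96%, and 4 had an unadjusted p below 0.05, against 2.31% of all genes. With equal FPKM sums 26 were higher and 8 lower, and the median was 0.23. The markers Lrp2 and Cubn overlapped almost fully. Lrp2 was at 35.2 to 75.1 FPKM in vehicle and 33.7 to 72.4 FPKM with TJ0113, and Cubn at 10.4 to 21.3 FPKM in both. Slc13a1, the sodium-sulfate cotransporter, was at 49.6, 64 and 50.6 FPKM in vehicle and 99.2, 68.2 and 85.9 FPKM with TJ0113, and sham was lowest at 37.8 to 45.6 FPKM (0.61 ± 0.17). Slc34a3, a phosphate transporter, was at 2.05, 7.95 and 6.65 FPKM in vehicle and 13.9, 9.8 and 10.4 FPKM with TJ0113, and sham was highest at 15.8 to 24.6 FPKM (1.05 ± 0.37). These 2 therefore lay on opposite sides of sham. Slc7a9, a cystine transporter, was at 26.2, 41.2 and 33.8 FPKM in vehicle and 54.1, 38.9 and 53.6 FPKM with TJ0113, with overlap (0.53 ± 0.20). Slc22a8, an organic anion transporter, was at 48.5, 123 and 39.5 FPKM in vehicle and 119, 137 and 89.5 FPKM with TJ0113 (0.87 ± 0.37). Vehicle library 2 lay within the TJ0113 range for both genes. The average of the list relative to sham was -1.16, -0.4 and -1.54 in vehicle and -0.4, -0.51 and -1.13 with TJ0113. The median was 0.67 without vehicle library 2 and 0.05 without vehicle library 3, with 18 of the 34 higher in the latter case. In bulk tissue, fewer proximal tubule cells and less RNA of these genes per cell cannot be told apart.

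Several single genes stood out on the higher side. Cyp2j7, a cytochrome P450, was at 1.47, 1.43 and 0.993 FPKM in vehicle and 2.5, 2.3 and 2.74 FPKM with TJ0113, and 1.89 to 2.27 FPKM in sham (0.62 ± 0.13). Frs3, an adaptor of fibroblast growth factor receptors, was at 2.04, 2.89 and 2.54 FPKM in vehicle and 4.5, 4.68 and 3.97 FPKM with TJ0113 (0.63 ± 0.14). Mlxipl, which encodes the glucose-sensing transcription factor ChREBP, was at 45.8, 55 and 45 FPKM in vehicle and 70.6, 62.9 and 75.1 FPKM with TJ0113 (0.51 ± 0.13). For each of the 3, all TJ0113 libraries lay above all sham libraries, too. Entpd8, an ectonucleotidase, was at 4.38, 6.4 and 4.35 FPKM in vehicle and 8.62, 8.14 and 7.31 FPKM with TJ0113 (0.59 ± 0.15). Krtcap2, a subunit of the complex that glycosylates proteins, was at 19.2, 22.5 and 23.8 FPKM in vehicle and 29.8, 28.9 and 31.4 FPKM with TJ0113 (0.45 ± 0.12). Cyp4a12a, a male-biased P450 that makes 20-HETE, was at 4.74, 9.25 and 5.31 FPKM in vehicle and 12.2, 10.3 and 9.76 FPKM with TJ0113, far below the 46.1 to 99.6 FPKM of sham (0.70 ± 0.29). It was the 1 separated member of 15 male-biased proximal tubule genes, of which 8 were higher and 7 lower (median 0.04). Without vehicle library 3, 2 of the 15 were higher and the median was -0.48. Among genes that separated, Gapdh had the largest difference (2.02 ± 0.56), with 5.76, 5.48 and 4.74 FPKM in vehicle and 27.4, 31.4 and 17.1 FPKM with TJ0113. Sham libraries of Gapdh stood at 4.71, 4.9 and 29.5 FPKM, so it split the unclamped group as well, and its level is uncertain because it can share reads with its many processed copies.

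**Figure D4:**
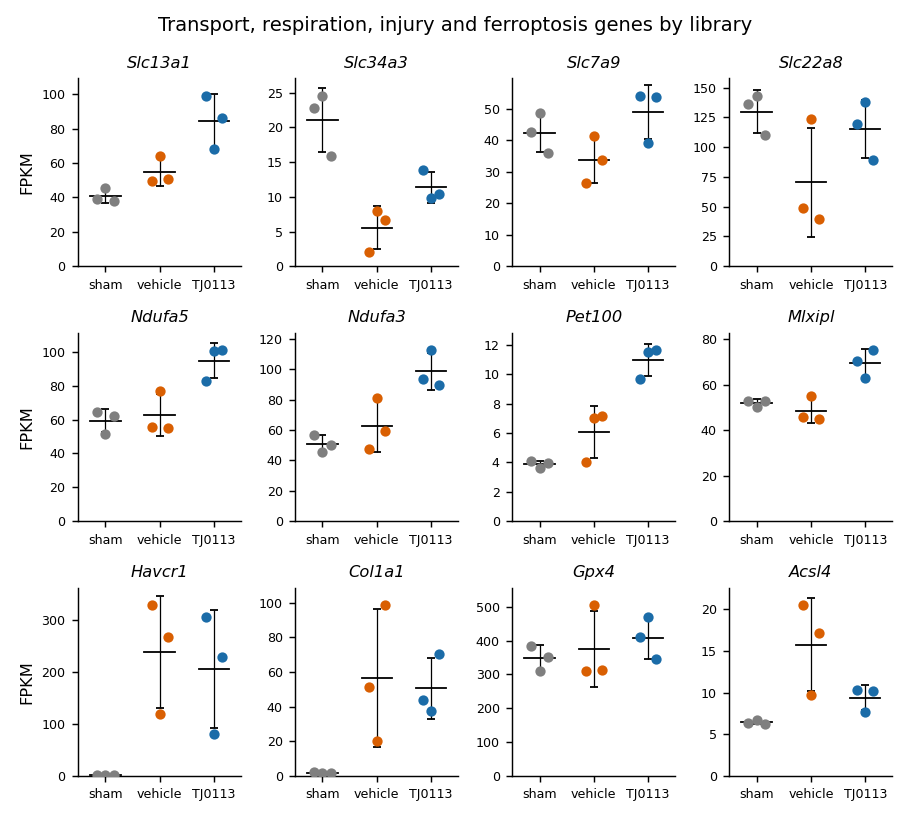
FPKM of 12 genes in each of the 9 libraries (points), with the group mean and SD as black lines and the y axis starting at 0. The injured groups do not overlap for Slc13a1, Slc34a3, Ndufa5, Ndufa3, Pet100 and Mlxipl, and they overlap for the other 6, among them Havcr1 and Col1a1.

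Tubular injury genes remained high in both injured groups. Of 29 tested, 28 were lower with TJ0113 and 1 higher, with a median of -0.28, but 0 had an unadjusted p below 0.05 and 0 were without overlap. Havcr1, which encodes kidney injury molecule 1, was at 328, 120 and 266 FPKM in vehicle and 305, 81.1 and 229 FPKM with TJ0113, against at most 1.82 FPKM in sham. The spread inside each group exceeded the difference between them, and the 95% interval of -1.40 to 0.81 spans differences of either sign. Krt20, a keratin of injured tubules, was at 48.3, 14.7 and 46.7 FPKM in vehicle and 25.7, 8.26 and 24.1 FPKM with TJ0113 (-0.86 ± 0.50). For both genes library 2 was lowest in either group. The list median was -0.67 without vehicle library 2, and over all 6 such fits it ran from -0.67 to 0.11.

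Matrix genes differed in direction with the library left out. Of 32 collagen and matrix genes, 9 were higher and 23 lower, with a median of -0.05, and without vehicle library 2 the median was -0.54 with 29 lower. Without vehicle library 3 it was 0.27 with 27 higher. Col1a1, the main fibrillar collagen, was at 51, 19.9 and 98.5 FPKM in vehicle and 43.5, 37.4 and 70.5 FPKM with TJ0113 (0.06, interval -1.01 to 1.13). Ccn1, a matrix protein induced by stretch and by the YAP pathway, had far wider values, with 154, 48.2 and 351 FPKM in vehicle and 40.7, 28.9 and 59.1 FPKM with TJ0113 (-1.72 ± 0.59). Its relative Ccn2 was at 133, 22.2 and 135 FPKM in vehicle and 18.5, 24.3 and 45.8 FPKM with TJ0113 (-1.40 ± 0.63). In both genes, vehicle libraries 1 and 3 lay above every TJ0113 library, and vehicle library 2 lay inside the TJ0113 range. Without it the log2 differences were -2.47 and -2.25, and without vehicle library 3 they were -1.05 and -0.97.

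Immune genes overlapped between the groups. Of 20 macrophage and monocyte markers, 14 were lower and 6 higher, and of 27 cytokine, chemokine and NF-kB genes 19 were lower and 8 higher. In neither list did any gene have an unadjusted p below 0.05. Adgre1, which encodes the macrophage marker F4/80, was at 10.6, 3 and 14.8 FPKM in vehicle and 5.32, 5.08 and 5.18 FPKM with TJ0113 (-0.54 ± 0.41). Its TJ0113 libraries were nearly equal and lay between the lowest and the middle vehicle library. Cxcl1, which attracts neutrophils, was at 83.1, 40.2 and 115 FPKM in vehicle and 32.9, 7.66 and 103 FPKM with TJ0113 (-1.24 ± 0.75). The medians of these lists were -0.10 and -0.15, and -0.67 and -0.59 without vehicle library 2, where all members of both were lower. Without vehicle library 3 they were 0.29 and 0.12, with 19 of 20 and 18 of 27 members higher.

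Ferroptosis is an iron-dependent death by lipid peroxidation that is common in injured proximal tubules. Of 22 genes that promote it, 17 were lower, with a median of -0.11, where 8690 of all 15453 genes were lower. On the lower side, 3 had an unadjusted p below 0.05 (3.69% of all genes) and 1 did not overlap (4.39% of all genes). The lowest member was Atf3 (-1.85), which is also in the immediate early list. With the length trend removed 15 were lower and the median was -0.05. Acsl4, which loads membranes with oxidisable fatty acids, was at 20.5, 9.67 and 17.2 FPKM in vehicle and 10.3, 7.73 and 10.2 FPKM with TJ0113, against 6.26 to 6.7 FPKM in sham (-0.64 ± 0.24). Vehicle library 2 lay within the TJ0113 range, and without it the log2 difference was -0.93, against -0.55 without vehicle library 3. Ncoa4, which releases iron from ferritin by autophagy, was at 7.43, 5.93 and 4.97 FPKM in vehicle and 4.45, 5.23 and 3.17 FPKM with TJ0113 (-0.43 ± 0.18). Of 29 genes that oppose ferroptosis, 11 were higher and 18 lower, with 0 at an unadjusted p below 0.05. Gpx4, which reduces lipid peroxides, was at 310, 505 and 312 FPKM in vehicle and 411, 469 and 346 FPKM with TJ0113 (0.15, interval -0.39 to 0.69). Scd1, which makes monounsaturated fatty acids, was at 49.5, 45.3 and 27.1 FPKM in vehicle and 6.83, 39 and 5.51 FPKM with TJ0113, and 19.8 to 155 FPKM in sham (-1.67 ± 0.80). Adipose genes varied in the same libraries. Averaged over the 9 adipose genes tested, the level relative to sham was 0.35, -1.23 and 0.57 in vehicle and -1.45, 0.29 and -1.39 with TJ0113. All 9 had lower values with TJ0113 (median -0.56), and the part of adipose tissue in the Scd1 values was not tested.

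Among other nephron segments, all 11 principal cell markers tested were lower with TJ0113 (median -0.36), as were 11 of 12 intercalated cell markers (median -0.14) and 10 of 11 thick ascending limb markers (median -0.21), with 0 of them at an unadjusted p below 0.05. Without TJ0113 library 1 these medians were -0.09, 0.13 and -0.03, in the same order. Without TJ0113 library 2 they were -0.70, -0.51 and -0.69. Averages of the principal cell list relative to sham were 0.25, 0.14 and 0.27 in vehicle and -0.67, 0.41 and -0.14 with TJ0113. Of 11 distal convoluted and connecting tubule markers, 6 were higher and 5 lower (median 0.13). Omitting vehicle library 2 gave a median of 0.32 and omitting library 3 one of -0.33. Sgk1, described above, was the one member at an unadjusted p below 0.05 and without overlap. Umod, the secreted protein of the thick ascending limb, was at 833, 788 and 309 FPKM in vehicle and 188, 817 and 286 FPKM with TJ0113. The averages of the thick ascending limb list relative to sham were 0.01, 0.01 and -1.08 in vehicle and -1.38, 0.23 and -0.75 with TJ0113. The part of these segments in the results above was not tested. Of 31 proteasome subunits, 17 were higher and 14 lower, and their median was 0.00. With equal FPKM sums 2 were higher and 29 lower, with a median of -0.11. Psmd1 and Psmd2, subunits of its regulatory base, were the members with the lowest p, at -0.44 ± 0.17 and -0.31 ± 0.12.

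**Figure D5:**
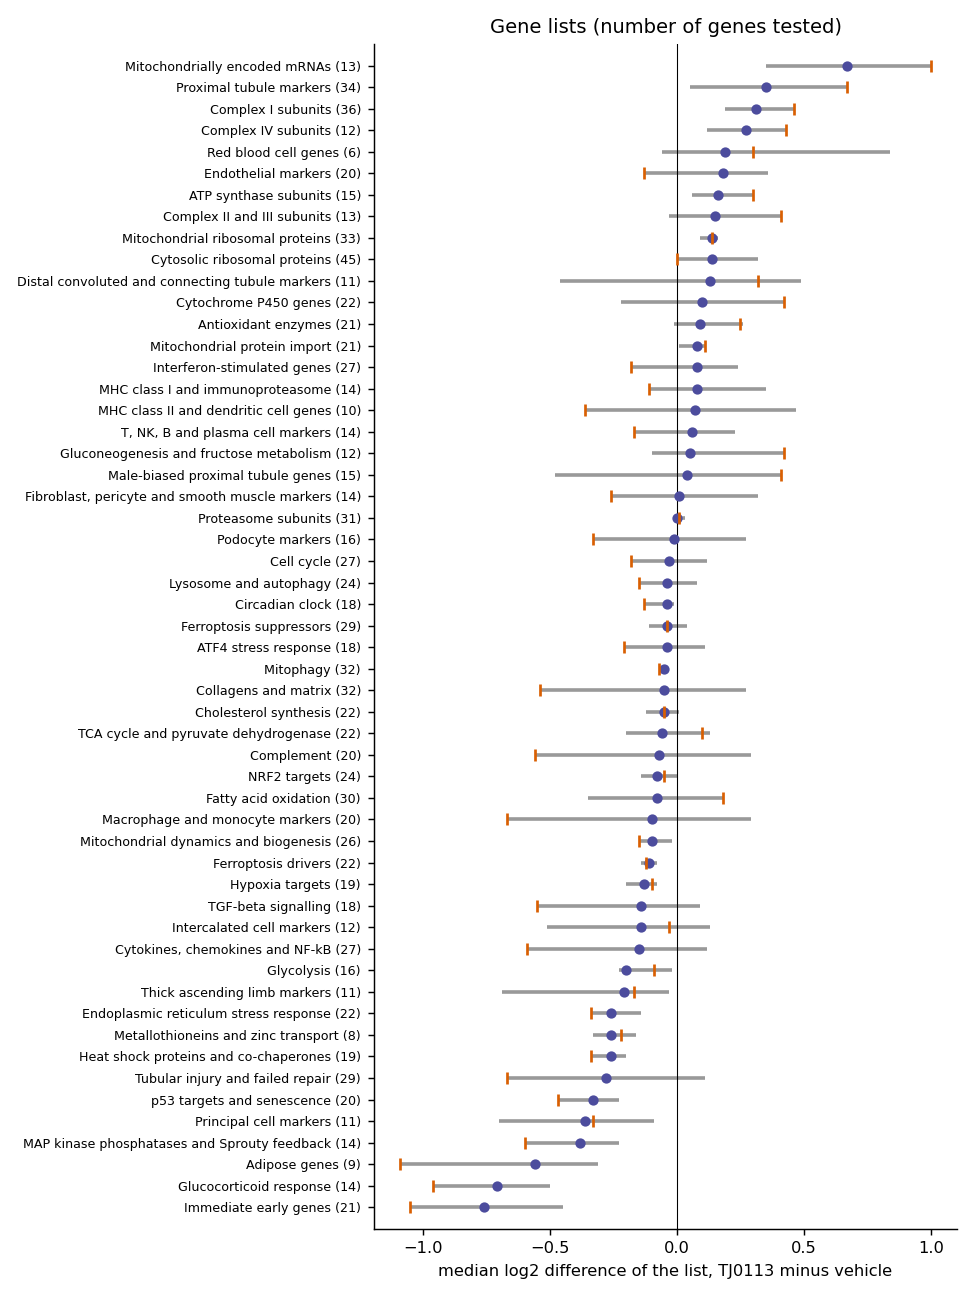
Median log2 difference between TJ0113 and vehicle for each gene list with at least 5 tested genes (blue points), with grey bars for the range of that median over the 6 fits that each leave out 1 injured library and orange marks for the fit without vehicle library 2. Immediate early and glucocorticoid response genes lie lowest, at -0.76 and -0.71, and the 13 mitochondrially encoded messages highest, at 0.67. With quantile normalization the median of those 13 was 0.17, below complex I (0.30) and the proximal tubule markers (0.33).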

How the data were processed

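Messenger RNA of the renal cortex was sequenced in 9 libraries. The authors deposited FPKM per gene, and the submitters' processing notes name HISAT2; its version, the counter, the build and the annotation behind the table are not known here. FPKM were used as deposited, without rescaling. Symbols came from GENCODE M21 by Ensembl identifier, for 33893 of 34669 (97.8%). Low values fall on steps of 1 read. Of them, 98.67 to 99.01% lay within 0.02 of a whole read, which gave the depths and the reads for an added alternative.

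Log2(FPKM + 1) was fitted with limma 3.58.1 (R 4.3.3) over the 3 groups of 3 with a variance trend. P-values were adjusted over all genes by Benjamini-Hochberg, and 0.05 was the threshold. The pseudocount of 1 understates differences of low genes. SE and intervals come from this fit. The procedure was tested on simulated data. Python 3.11.15 with pandas 2.3.3 and scipy 1.17.1 summarised the lists. No set test was run.

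The genes, the lists and the settings were chosen with earlier results of these data known. The 57 lists held 1161 entries found in the table, of which 1098 passed the minimum of 0.5 FPKM. Genes were named by rule: among those without overlap, the 12 with the smallest p and the 6 with the largest difference in each direction, then up to 4 of each list by smallest p, and a fixed set. Not all of these are described, and some results are not reported here. Same-numbered vehicle and TJ0113 libraries were not treated as pairs. Alternatives were another pseudocount, other filters, scalings and fits, and leaving out each library.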

Additional observations from a re-analysis of the deposited data

How the results depend on the processing

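The count of 0 genes at an adjusted p below 0.05 (limma, Benjamini-Hochberg) held in each alternative except the fit with library weights, which gave 189 higher and 279 lower and called 36 of the genes named above. Limma-voom on recovered reads, chosen after seeing the data, also gave 0 of either, with 300 higher and 599 lower at an unadjusted p below 0.05. At that threshold, in place of 357 higher and 570 lower, equal FPKM sums gave 136 and 839 (13.9% higher in place of 38.5%), quantile normalization 542 and 686, no filter 849 and 1103, the 6 injured libraries alone 171 and 211, and library weights 1534 and 2822. A minimum mean of 2 FPKM gave 239 and 528. Counts without overlap moved from 458 higher and 678 lower to 1018 and 1125 with no filter, and the higher count to 293 at a mean of at least 2 FPKM and 192 with equal sums. Leaving out 1 library gave 147 to 926 higher and 173 to 2952 lower at an unadjusted p below 0.05, the extremes coming from the vehicle libraries, and 458 to 2091 higher and 678 to 4144 lower without overlap.

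Same-numbered libraries of both injured groups correlated at -0.055, 0.501 and 0.556 in their deviations from the group mean. Library 2 of one group with library 3 of the other gave -0.535 and -0.543. The labels name no pairs, so numbers were not read as pairs, and whether the libraries are paired was not tested. A replicate block gave 359 higher and 630 lower at an unadjusted p below 0.05 and changed no call. The mitochondrial share differed by 2.05 to 7.64 percentage points when 1 library was left out.

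Differences near 0 changed sign. Pink1 was at -0.11 with equal sums, -0.02 with equal sums of nuclear genes, -0.03 with quantile normalization, -0.01 with limma-voom, and -0.18 to 0.21 when 1 library was left out. Col1a1 was at -0.06 with equal sums, -0.19 with library weights and -0.54 to 0.59 when 1 library was left out, and Havcr1 at -0.73 to 0.27. The cause was not tested. With 3 libraries a group, the median interval spans 0.387 to either side, without adjustment over genes. This width is no detection limit of the adjusted test. Much larger differences also missed its threshold, among them Hspa1b, which had the smallest p, at -1.14 and Fos at -1.9.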

Other observations

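Several classes of non-coding genes leaned higher with TJ0113, but not all of them did. Of 407 antisense genes tested, 38 were higher without overlap (9.34%) and 6 lower (1.47%), and of 350 long intergenic non-coding genes 28 were higher (8.0%) and 5 lower (1.43%). Among 59 bidirectional promoter RNAs, 11 were higher without overlap (18.6%) and 0 lower (0.0%), with a median log2 difference of 0.16. Of 89 small nucleolar RNAs, 2 were higher without overlap (2.25%) and 3 lower (3.37%), with a median of -0.07. Of 787 processed pseudogenes, 32 were higher without overlap (4.07%) and 54 lower (6.86%), with a median of -0.01. Protein-coding genes leaned lower, with 285 higher without overlap (2.2%) and 582 lower (4.49%) of 12961 tested. Whether the authors counted by strand is not stated, so reads of an antisense gene and of its partner cannot be told apart, and the part of gene length in these counts was not tested.

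Endothelial markers had 17 of 20 members higher with TJ0113 (median 0.18) and 0 without overlap, and their median was -0.13 without vehicle library 2 and 0.36 without vehicle library 3. Interferon-stimulated genes had 18 of 27 higher (median 0.08), and cytosolic ribosomal proteins 34 of 45 higher (median 0.14), again with 0 without overlap in either list. With equal FPKM sums 10 and 26 of them were higher. Without vehicle library 2 the interferon median was -0.18 (5 higher) and the ribosomal median 0.00 (24 higher), and without vehicle library 3 they were 0.24 and 0.32. Red blood cell genes, which follow the blood left in the tissue, averaged -0.61, 0.07 and 0.06 relative to sham in the vehicle libraries and 0.65, 0.85 and -0.87 with TJ0113.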
